A study of Rattus norvegicus with 6 samples.

Results

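Interferon response genes were followed in rat kidney tubule cells under TGF-β1, with and without a hairpin against AMPKα2. Members were taken from a list of 51 gene symbols that covers the interferon receptor chains, the IRF and STAT regulators and genes that interferons induce. A member counted as measured where the platform annotation gave at least 1 probe set to that gene alone, and where there were several, the gene was read from the one of highest average on the 6 arrays. By this rule 45 of the 51 symbols were measured, among 14217 genes in all. Gbp5, Trim21, Tlr3, Xaf1 and the RNA sensor RIG-I, which the list carries under both of its symbols, Ddx58 and Rigi, had no such probe set.

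The cells were NRK-52E, an established line of normal rat renal tubular epithelium. On 3 arrays the cells carried a lentivirus encoding an AMPKα2 short hairpin RNA (shAMPKα2), and on 3 arrays a control lentivirus (shCtrl). Both groups then received TGF-β1, a cytokine of fibrosis, at 10 ng/mL for 24 h, so neither group was free of TGF-β1 or of virus. The 3 arrays of a group are labelled biological replicates, with no word on whether they came from separate infections, so p-values measure only the spread between these arrays. Their number limits the precision of every value.

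Interferons are cytokines that cells release on sensing viral nucleic acid. Type I interferons bind a receptor of IFNAR1 and IFNAR2 chains, and interferon gamma binds one of IFNGR1 and IFNGR2 chains. Through Janus kinases both receptors send STAT proteins into the nucleus, where the type I signal acts through a complex that holds STAT2 and IRF9. The induced genes block viral entry, translation and replication, raise the sensors themselves and feed back on the receptor. In kidney epithelium the same genes are active in viral, immune and injury states.

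Response genes are recognised by short DNA elements near their start, and sequences of 8 members show them. Among these, the core of the interferon-stimulated response element stands in genes that fell and in genes that rose. The core of the interferon-stimulated response element was searched on either strand as GAAA, any 2 bases and GAAA again, overlaps included, and the core of the gamma-activated site as TTCNNNGAA, which reads alike on both strands. Each line gives the 150 bases before the gene's start, 5′ to 3′ on the gene's strand, from RefSeq on build GRCr8, with the cores in capitals. Igtp, Gbp2, Ifi27 and Irf1 fell in these data, Ifit3, Ifitm2 and Ifih1 rose in the deposited values, and Bst2 did not pass.
Igtp (chr10:42874897-42875046, + strand): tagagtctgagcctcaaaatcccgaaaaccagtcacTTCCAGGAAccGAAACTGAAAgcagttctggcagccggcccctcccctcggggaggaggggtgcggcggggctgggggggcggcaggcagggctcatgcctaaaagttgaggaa
Gbp2 (chr2:234005577-234005726, + strand): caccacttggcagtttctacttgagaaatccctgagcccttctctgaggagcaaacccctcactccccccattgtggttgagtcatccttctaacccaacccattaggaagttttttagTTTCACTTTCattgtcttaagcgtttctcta
Ifi27 (chr6:128355162-128355311, + strand): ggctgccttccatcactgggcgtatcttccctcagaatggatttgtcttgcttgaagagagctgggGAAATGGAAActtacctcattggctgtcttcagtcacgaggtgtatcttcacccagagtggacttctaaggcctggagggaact
Irf1 (chr10:38417785-38417934, + strand): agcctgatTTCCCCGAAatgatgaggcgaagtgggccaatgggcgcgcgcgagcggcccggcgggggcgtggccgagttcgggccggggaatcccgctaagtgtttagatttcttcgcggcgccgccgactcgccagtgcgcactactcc
Ifit3 (chr1:241527176-241527325, + strand): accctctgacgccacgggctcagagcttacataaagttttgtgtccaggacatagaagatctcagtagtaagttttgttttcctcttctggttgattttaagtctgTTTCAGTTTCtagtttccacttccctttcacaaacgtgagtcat
Ifitm2 (chr1:205482349-205482498, - strand): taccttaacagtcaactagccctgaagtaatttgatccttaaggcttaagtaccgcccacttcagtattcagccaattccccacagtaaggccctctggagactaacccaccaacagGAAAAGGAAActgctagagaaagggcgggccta
Ifih1 (chr3:67683969-67684118, - strand): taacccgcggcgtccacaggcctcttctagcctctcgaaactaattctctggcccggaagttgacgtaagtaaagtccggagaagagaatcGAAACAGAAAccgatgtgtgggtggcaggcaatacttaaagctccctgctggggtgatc
Bst2 (chr16:18254968-18255117, - strand): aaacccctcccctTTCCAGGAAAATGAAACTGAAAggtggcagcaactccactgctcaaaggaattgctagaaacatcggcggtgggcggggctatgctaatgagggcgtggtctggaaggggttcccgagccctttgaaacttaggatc

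In Bst2 the gamma-activated core and 2 response element cores overlap in one run of capitals, while in Igtp they lie side by side. RefSeq promoters, which run from 250 bases before to 50 after a start, were at hand for 40 of the listed symbols and for 36 of the measured members. The response element core stood in 20 of those 36 members (55.6%), against 3.77% of the promoters of all 27457 genes in the table. TTCNNNGAA stood in 13 of the 36 (36.1%), against 8.68% of all. Promoters were at hand for 19 of the 21 members that fell, 5 of the 10 that rose and 12 of the 14 that did not pass. The response element core stood in 10 of 19 members that fell, in 4 of 5 that rose and in 6 of 12 that did not pass, so genes of every outcome carried it. TTCNNNGAA stood in 6 of 19 that fell, in 1 of 5 that rose and in 6 of 12 that did not pass. A match of letters describes a window and is not a measured binding site.

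The distribution of values differed between the groups, and each change below has to be read with that. Over all probe sets the medians of the deposited log2 values ran between 6.04 and 6.05 on the shAMPKα2 arrays and between 5.82 and 5.83 on the shCtrl arrays, and the SDs between 1.76 and 1.82 on the shAMPKα2 arrays and between 2.17 and 2.19 on the shCtrl arrays. Genes of low level were mostly higher and genes of high level mostly lower on the shAMPKα2 arrays. The median change over all genes was 0.81 at shCtrl levels from 5 to 6 and -0.74 at levels from 8 to 9. Prkaa2, the gene of AMPKα2, had a log2 change of -0.21 that did not pass (limma, adjusted p = 0.0552). It stood at 6.64, 6.76 and 6.49 on the shAMPKα2 arrays, against 6.83, 6.79 and 6.89 on the shCtrl arrays. These groups did not overlap, as in 87.1% of all genes, and only the deposited values were read for this gene. By this test a knockdown was not shown, and groups are named by their labels. Prkaa1, the gene of AMPKα1, fell by 2.34 (limma, adjusted p = 7.04e-09). Of 9 kidney epithelium markers 7 rose and 1 fell, with mean levels from 3.47 to 12.24 on the shAMPKα2 arrays and from 2.97 to 12.49 on the shCtrl arrays. The keratin gene Krt8 was at the top of those ranges, and Epcam, with Cdh1 (4.74 on the shAMPKα2 arrays, 4.31 on the shCtrl arrays), was near the bottom of the scale. Of 8 leukocyte markers 7 rose and 1 fell, at levels where the medians of all genes had a median of 0.74 and beside 43.6% of all genes that rose. The pan-leukocyte gene Ptprc averaged 5.07 on the shAMPKα2 arrays and 4.14 on the shCtrl arrays, a change of 0.94 beside 0.74 for genes of its level, and Cd14 averaged 9.08 on the shAMPKα2 arrays and 10.78 on the shCtrl arrays. Of 5 fibroblast and smooth muscle markers all 5 rose, and of 3 endothelial ones 2 rose. The 5 fibroblast and smooth muscle markers all lay above the median of genes of their level. Their median change was 1.48, where the medians for their levels had a median of 0.22. Of the leukocyte markers 6 lay above that median and 2 below, of the kidney markers 4 above and 5 below, and of the endothelial ones 1 above and 2 below. The part of these shifts in the interferon genes was not tested, and fewer cells of a kind cannot be told apart from less RNA per cell.

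More interferon genes fell than rose with the AMPKα2 hairpin. Of the 45 measured members 21 fell, 10 rose and 14 did not pass (limma, Benjamini-Hochberg adjusted p under 0.05 over all genes). Among all 14217 genes 41.5% fell and 43.6% rose by the same rule, 85.1% together, so the share of members that fell, 46.7%, was near the background and the share that rose, 22.2%, was below it. Falls of at least 2-fold were seen in 12 members and a rise of that size in 1, against 18.6% and 11.6% of all genes. The median log2 change of the members was -0.17, beside 0.05 over all genes. Against the median of all genes whose shCtrl level lay within 0.5 log2 units of its own, 33 members lay below and 12 above.

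**Figure D1:**
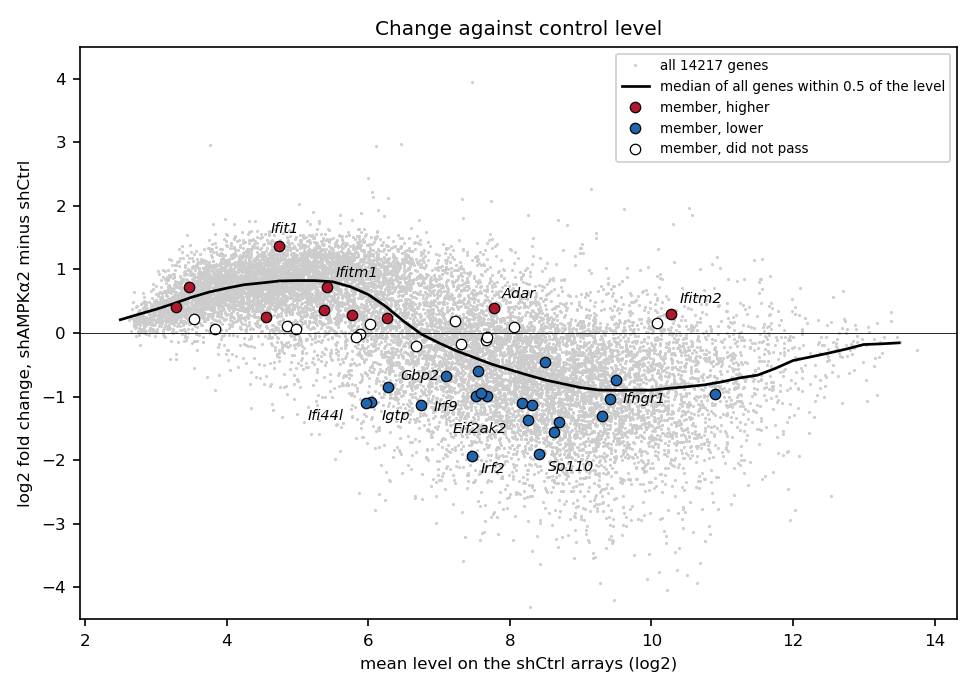
Log2 fold change (shAMPKα2 minus shCtrl) of each gene against its mean level on the shCtrl arrays, with all 14217 genes in grey, their running median as a line and the 45 members as circles filled by outcome. The line bends from 0.81 at levels of 5 to 6 to -0.74 at levels of 8 to 9, and 33 of the 45 circles lie below it.

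The bend in the plot of change against control level means that a change near 0 has a different standing at different levels. The fit was therefore repeated with 3 other scalings. With quantile normalization 10 members rose and 23 fell, against 43.8% and 28.9% of all genes. With cyclic loess 10 rose and 27 fell, against 40.2% and 31.5% of all genes. With each array centred on its median 4 rose and 27 fell, against 35.0% and 48.2% of all genes. In the deposited values and all 3 of these scalings, 18 members fell and 2 rose. Of all genes, 26.4% fell and 25.5% rose in all 4 scalings, so the share of members with a fall that held (18 of 45) was above the background and the share with a rise that held (2 of 45) was below it. The 18 were Irf2, Sp110, Ifnar2, Ifngr2, Eif2ak2, Irf3, Ifi35, Irf9, Ifi44l, Isg20, Igtp, Ifngr1, Irf1, Dtx3l, Ifi27, Usp18, Gbp2 and Irgm, and the 2 were Ifit1 and Ifitm1. For Irf2, counted here by the probe set used, a second probe set rose, and for Ifnar2 and Igtp a second one did not pass. Another 5, Parp9, Stat2, Parp14, Mx2 and Oas1a, passed upward in some scalings and downward in others, as 9.50% of all genes did. No test of the list as a whole was made, since its members were chosen with results of these arrays known.

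**Figure D2:**
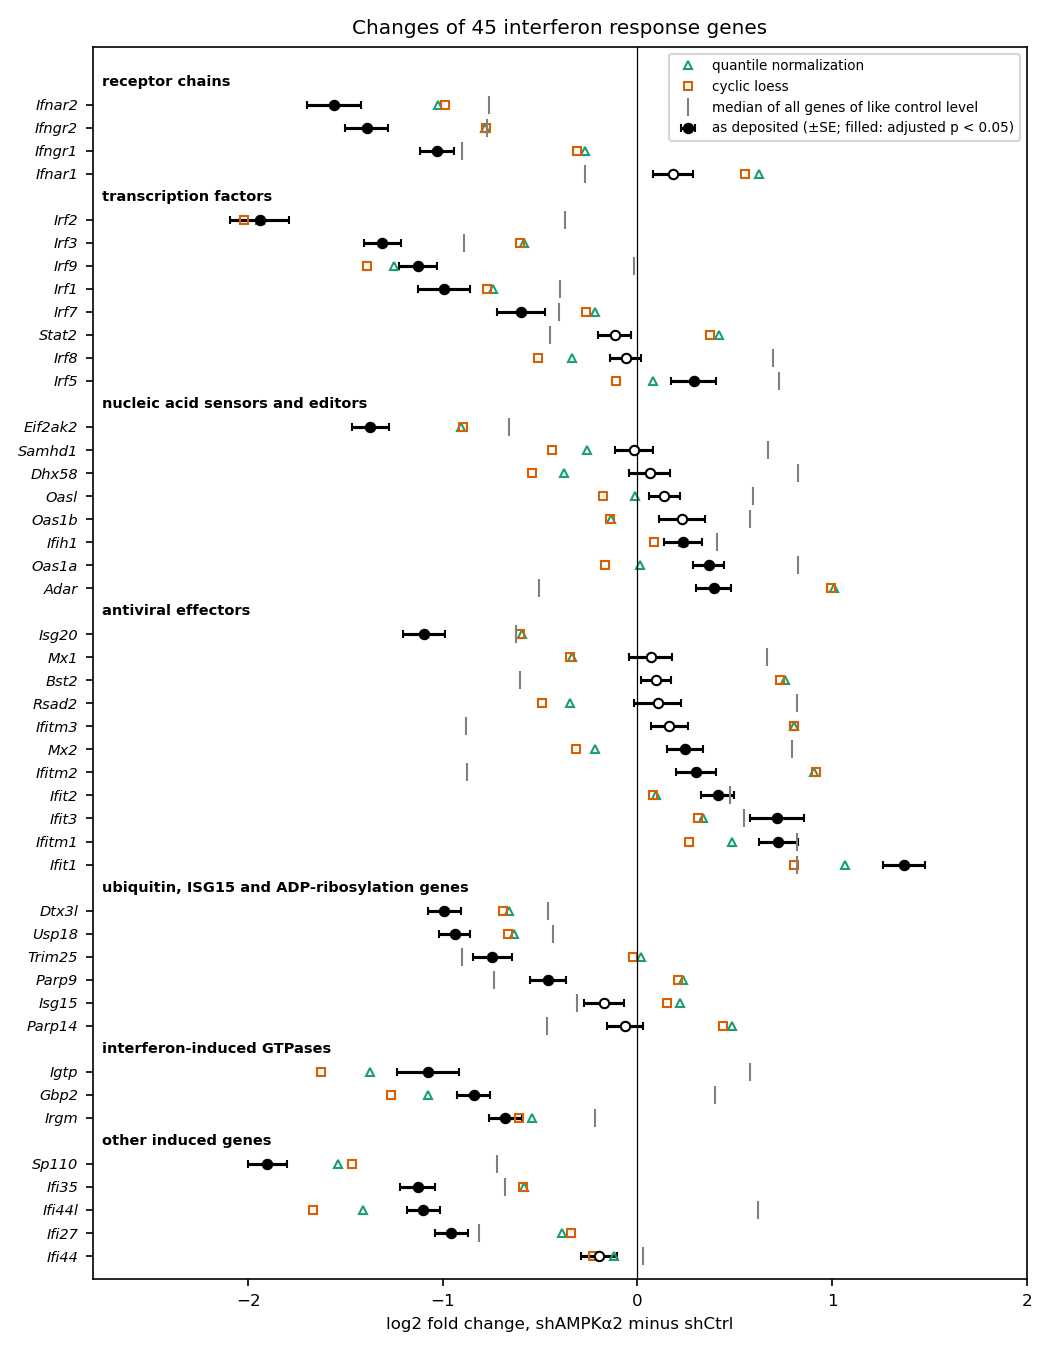
Log2 fold changes (shAMPKα2 minus shCtrl) of the 45 measured members by role, as deposited (black circles with SE from limma, filled where adjusted p was under 0.05), after quantile normalization (triangles), after cyclic loess (squares), and the median of all genes of like shCtrl level (grey bars). Ifnar2, Ifngr1, Ifngr2, Gbp2, Igtp and Irgm lie left of 0 in each scaling shown, and 10 of the 11 antiviral effectors lie right of 0 as deposited. Of those 11, 6 lie left of their grey bar.

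Of the 4 receptor chains 3 fell, beside 41.5% of all genes, and Ifnar1 did not pass. Ifnar2, the chain of the type I receptor that binds interferon most tightly, stood at 7.32, 7.17 and 6.70 on the shAMPKα2 arrays, against 8.59, 8.59 and 8.69 on the shCtrl arrays. The groups did not overlap, as in 87.1% of all genes, and the third shAMPKα2 array was the lowest. Its log2 change was -1.56 (SE 0.14, limma, adjusted p = 1.67e-06), a 2.95-fold lower value, beside a median of -0.76 for genes of its level. Ifngr2, the signalling chain of the interferon gamma receptor, stood at 7.06, 7.37 and 7.50 on the shAMPKα2 arrays, against 8.69, 8.73 and 8.68 on the shCtrl arrays. Every shAMPKα2 array was more than 1 log2 unit below every shCtrl array. The gene fell by 1.39 (SE 0.11, limma, adjusted p = 6.99e-07), beside a median of -0.77 for genes of its level. Ifngr1, its ligand-binding partner, stood at 8.41, 8.26 and 8.49 on the shAMPKα2 arrays, against 9.45, 9.38 and 9.43 on the shCtrl arrays. It fell by 1.03 (SE 0.09), close to the median of -0.90 for its level, and after quantile normalization its change was only -0.27. Ifnar1, the other type I chain, stood at 7.58, 7.38 and 7.28 on the shAMPKα2 arrays, against 7.11, 7.36 and 7.22 on the shCtrl arrays. Here the groups overlapped, and the change of 0.18 did not pass as deposited (limma, adjusted p = 0.119), while changes of 0.62 under quantile normalization and 0.55 under cyclic loess did pass.

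The probe sets of the receptor genes differed among themselves. Ifngr2 was read alike by both of its probe sets, which had changes of -1.39 and -1.56. The second probe set of Ifnar2 had a change of 0.06 that did not pass, so the fall of that gene rests on 1 of 2 probe sets, and their mean changed by -0.75. Of the 6 probe sets of Ifnar1, 2 rose, 3 fell and the one used did not pass, with changes from -1.33 to 0.65, and no direction can be given for this chain. The plot of probe sets shows the same for Irf2.

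**Figure D3:**
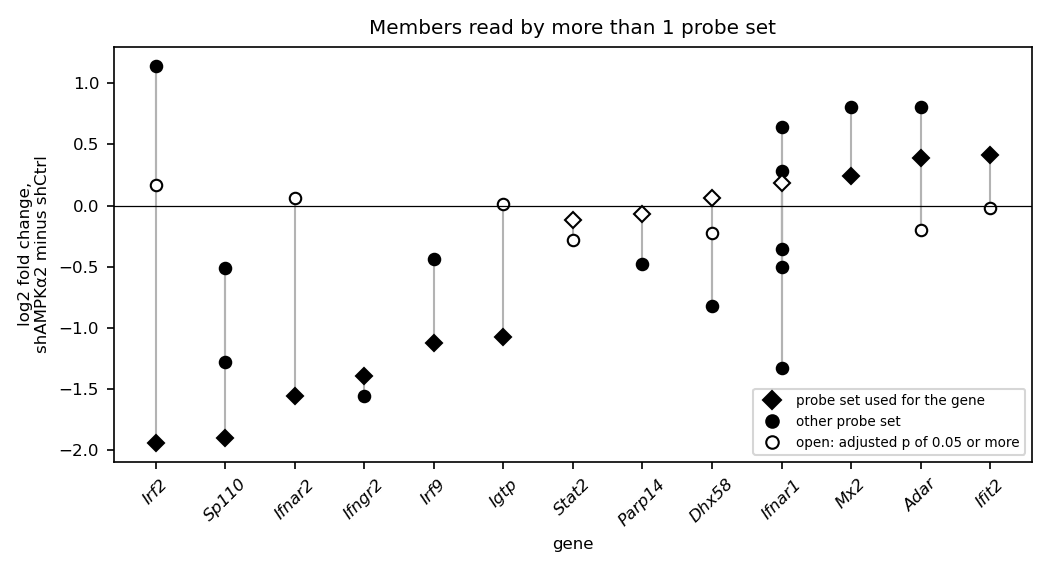
Log2 fold change (shAMPKα2 minus shCtrl) of every probe set for the 13 members read by more than 1, with the one used for the gene as a diamond, others as circles, and open symbols where adjusted p over all probe sets was 0.05 or more. Irf2 and Ifnar1 have filled symbols on both sides of 0, and the probe sets of Sp110, Ifngr2 and Irf9 all fell.

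The regulators of transcription fell in 5 of 8 cases and rose in 1, with Irf2 among the 5 by only 1 of its 3 probe sets. Over all genes 41.5% fell and 43.6% rose. Irf9, the DNA-binding partner of STAT2, stood at 5.71, 5.59 and 5.57 on the shAMPKα2 arrays, against 6.73, 6.61 and 6.92 on the shCtrl arrays. The shAMPKα2 arrays lay close together and well under the shCtrl arrays. It fell by 1.13 (SE 0.10, limma, adjusted p = 1.33e-06), where genes of its level had a median of -0.02, and its change was between -1.25 and -1.39 in the other 3 scalings. Its second probe set fell by 0.44. Stat2 itself stood at 7.66, 7.48 and 7.48 on the shAMPKα2 arrays, against 7.71, 7.64 and 7.64 on the shCtrl arrays. Those groups overlapped and the change of -0.12 did not pass (limma, adjusted p = 0.22); it was 0.42 under quantile normalization and -0.33 under median centring, and both of these passed.

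Irf3, which is switched on by phosphorylation to start interferon transcription, stood at 8.03, 8.12 and 7.81 on the shAMPKα2 arrays, against 9.27, 9.30 and 9.32 on the shCtrl arrays. It fell by 1.31 (SE 0.10, limma, adjusted p = 3.67e-07) with no overlap, as in 87.1% of all genes, and by 0.59 after quantile normalization. Genes of its level had a median of -0.89, and 30% of them had a more negative change. Irf7, which amplifies type I interferon transcription and is itself induced by interferon, stood at 7.21, 6.86 and 6.77 on the shAMPKα2 arrays, against 7.46, 7.49 and 7.69 on the shCtrl arrays. It fell by 0.60 (SE 0.12, limma, adjusted p = 0.000784), near the median of -0.40 for its level, and it did not pass under quantile normalization (-0.22) or cyclic loess (-0.26). Irf1, an activator that interferon gamma induces, stood at 6.72, 6.19 and 6.68 on the shAMPKα2 arrays, against 7.50, 7.47 and 7.60 on the shCtrl arrays. The second shAMPKα2 array was the lowest, and without it the change was -0.82, against -0.99 (SE 0.13, limma, adjusted p = 3.4e-05) with all arrays. Genes of the level of Irf1 had a median of -0.40.

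Irf2, an antagonist of IRF1 at shared sites, had the most negative change of all members in the probe set used: 5.53, 5.85 and 5.21 on the shAMPKα2 arrays, against 7.59, 7.55 and 7.28 on the shCtrl arrays, a log2 change of -1.94 (SE 0.15, limma, adjusted p = 5.78e-07). A second probe set gave a rise of 1.14, at a shCtrl mean of 4.64, while another gave 0.17 and did not pass. The mean of all 3 probe sets changed by -0.21. A fall of Irf2 as a gene was thus not shown. Irf5, which acts below Toll-like receptors, had a change of 0.29 (limma, adjusted p = 0.0361) in groups that overlapped, and did not pass under quantile normalization (0.08) or cyclic loess (-0.11). Irf8, a regulator of myeloid cells, had a change of -0.06 that did not pass, with means of 5.77 on the shAMPKα2 arrays and 5.83 on the shCtrl arrays.

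Of 8 measured sensors and RNA-acting enzymes 3 rose and 1 fell, beside 43.6% and 41.5% of all genes. Eif2ak2, the gene of the kinase PKR, which stops translation on binding double-stranded RNA, stood at 6.99, 6.93 and 6.72 on the shAMPKα2 arrays, against 8.31, 8.22 and 8.22 on the shCtrl arrays. The values of each group kept within 0.3 log2 units. Beside a median of -0.66 for genes of its level, the gene fell by 1.37 (SE 0.09, limma, adjusted p = 2.46e-07), and by 0.91 under quantile normalization. Adar, the gene of an enzyme that edits adenosine to inosine in double-stranded RNA, went the other way, with means of 8.17 ± 0.14 on the shAMPKα2 arrays and 7.78 ± 0.03 on the shCtrl arrays (SD, n = 3 each). It rose by 0.39 (SE 0.09, limma, adjusted p = 0.00202) at a level where genes had a median of -0.51, and by 1.01 after quantile normalization; after median centring its change of 0.18 did not pass. Another of its 3 probe sets rose by 0.80, and the third had -0.20, which did not pass.

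The cytoplasmic RNA sensor gene Ifih1, which encodes MDA5, had a change of 0.23 (limma, adjusted p = 0.0453) that did not pass without shAMPKα2 replicate 2 or without any 1 of the shCtrl replicates, nor in the other 3 scalings. Dhx58, which encodes the related protein LGP2, had 0.06 in the probe set used, while another of its 3 probe sets fell by 0.82. The genes of the oligoadenylate synthetase family had small changes: 0.37 for Oas1a, which passed, and 0.23 for Oas1b and 0.14 for Oasl, which did not. Genes at the levels of Oas1a, Oas1b and Oasl had medians of 0.82, 0.58 and 0.60, and after cyclic loess Oas1a had -0.17 and Oasl -0.18, both past the threshold. Oas1a and Oas1b are close copies, so their probe sets may share signal. Samhd1, which depletes nucleotides needed for reverse transcription, had -0.02 as deposited and -0.44 after cyclic loess.

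Among the antiviral effectors 6 of 11 rose and 1 fell, beside 43.6% and 41.5% of all genes. Of the 11, 6 lay below the median of genes of their level, and 2 rose in all 4 scalings. Ifit1, whose product binds viral RNA that lacks host cap methylation, stood at 6.16, 5.90 and 6.29 on the shAMPKα2 arrays, against 4.76, 4.68 and 4.80 on the shCtrl arrays. Each shAMPKα2 array was above each shCtrl array by over 1 log2 unit. It rose by 1.37 (SE 0.11, limma, adjusted p = 6.17e-07), a 2.58-fold higher value, where genes of its level had a median of 0.82, and its rise was between 0.81 and 1.15 in the other 3 scalings. Of the related genes, Ifit3 had means of 4.19 ± 0.23 on the shAMPKα2 arrays and 3.47 ± 0.22 on the shCtrl arrays (SD, n = 3 each), and Ifit2 had 3.70 ± 0.08 on the shAMPKα2 arrays and 3.28 ± 0.06 on the shCtrl arrays. Their rises of 0.72 and 0.41 compare with medians of 0.55 and 0.47 for genes of their level, and neither passed after quantile normalization or cyclic loess. The other probe set of Ifit2 did not pass at -0.02, and both averaged together gave 0.20.

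The IFITM proteins block virus fusion at membranes. Ifitm1 had means of 6.14 ± 0.14 on the shAMPKα2 arrays and 5.42 ± 0.11 on the shCtrl arrays (SD, n = 3 each), a rise of 0.72 (SE 0.10, limma, adjusted p = 4.53e-05) that held in all 4 scalings, although genes of its level had a median of 0.82. For Ifitm2 and Ifitm3 the genes of like level had a median of -0.88. Ifitm2 had means of 10.58 ± 0.18 on the shAMPKα2 arrays and 10.28 ± 0.03 on the shCtrl arrays, and Ifitm3 had 10.25 ± 0.16 on the shAMPKα2 arrays and 10.08 ± 0.03 on the shCtrl arrays. Ifitm2 rose by 0.30 (limma, adjusted p = 0.0167), but did not pass without shAMPKα2 replicate 1 or 2 or without shCtrl replicate 2, while the 0.16 of Ifitm3 did not pass. After quantile normalization they rose by 0.91 and 0.80, and after median centring they had 0.08 and -0.05, which did not pass. Ifitm2 was above 0 in all 4 scalings and Ifitm3 was not. For both, the size and whether it passed depend on the scaling.

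Isg20, an RNA exonuclease, was the effector that fell. It stood at 7.18, 7.21 and 6.82 on the shAMPKα2 arrays, against 8.14, 8.20 and 8.17 on the shCtrl arrays. Its log2 change was -1.10 (SE 0.11, limma, adjusted p = 3.51e-06), beside a median of -0.63 for its level. Bst2, which encodes tetherin, had means of 8.15 on the shAMPKα2 arrays and 8.06 on the shCtrl arrays, a change of 0.10 that did not pass, and had 0.76 after quantile normalization, which passed. The GTPase genes Mx1 and Mx2 had 0.07 and 0.25, of which the second passed as deposited (limma, adjusted p = 0.029). After cyclic loess they had -0.35 and -0.32, both past the threshold. As deposited, a second probe set of Mx2 rose by 0.80 and both averaged together rose by 0.52, so its direction depends on the scaling and its size on the probe set. Rsad2, which encodes viperin, had 0.10, which did not pass, with -0.49 after cyclic loess.

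Among the genes of ISG15, ubiquitin and ADP-ribosylation 4 of 6 fell, beside 41.5% of all genes, and Isg15 and Parp14 did not pass. Usp18, the protease that removes ISG15 and dampens signalling at IFNAR2, stood at 6.72, 6.64 and 6.61 on the shAMPKα2 arrays, against 7.58, 7.56 and 7.65 on the shCtrl arrays. It fell by 0.94 (SE 0.08, limma, adjusted p = 1.22e-06). Dtx3l, a ubiquitin ligase, stood at 6.79, 6.63 and 6.66 on the shAMPKα2 arrays, against 7.60, 7.73 and 7.71 on the shCtrl arrays, with a log2 change of -0.99 (SE 0.09). In both genes the arrays of a group lay within 0.2 log2 units of each other. The medians for the levels of Usp18 and Dtx3l were -0.43 and -0.46. Parp9, whose product pairs with that of Dtx3l, fell by 0.46 (limma, adjusted p = 0.000829), less than the median of -0.74 for its level, and rose by 0.23 after quantile normalization. Parp14, an ADP-ribosyltransferase, had -0.07 in the probe set used, while its other probe set fell by 0.47 and the mean of both by 0.27. Isg15 itself, the ubiquitin-like modifier, stood at 7.25, 7.26 and 6.92 on the shAMPKα2 arrays, against 7.36, 7.29 and 7.30 on the shCtrl arrays. The groups did not overlap by a narrow margin, and the change of -0.17 did not pass (limma, adjusted p = 0.141). Trim25, a ligase that activates RIG-I, fell by 0.75 at a level where genes had a median of -0.90, and had 0.02 after quantile normalization.

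Gbp2, Igtp and Irgm encode interferon-induced GTPases that take part in the defence against intracellular microbes. These 3 fell in each of the 4 scalings, as did 26.4% of all genes. Of related genes outside the member list, Irgm2 fell by 0.56 (limma, adjusted p = 0.000245), and its fall held in all 4 scalings. Gbp7 rose by 0.53, but did not pass after quantile normalization (0.27) or cyclic loess (0.23). Gbp4 had 0.05, which did not pass. Irgm2, Gbp7 and Gbp4 were named after their values were seen. Gbp2 stood at 5.49, 5.42 and 5.41 on the shAMPKα2 arrays, against 6.19, 6.30 and 6.36 on the shCtrl arrays, a log2 change of -0.84 (SE 0.08, limma, adjusted p = 3.57e-06). Igtp stood at 5.36, 4.86 and 4.68 on the shAMPKα2 arrays, against 5.96, 5.94 and 6.23 on the shCtrl arrays, a log2 change of -1.08 (SE 0.16, limma, adjusted p = 7.62e-05). The genes of their levels moved the opposite way, with medians of 0.40 and 0.58, and under cyclic loess the changes were -1.27 and -1.63. The second probe set of Igtp had 0.02, and a probe set shared with Igtpl1 and Irgm2 had -0.50, so the size for Igtp is uncertain among these near copies. Irgm had means of 6.42 ± 0.10 on the shAMPKα2 arrays and 7.10 ± 0.02 on the shCtrl arrays (SD, n = 3 each). It fell by 0.68 (SE 0.08), beside a median of -0.22 for its level.

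Other induced genes fell in 4 of 5 cases, beside 41.5% of all genes. Sp110, a nuclear body gene of the SP100 family, stood at 6.40, 6.46 and 6.70 on the shAMPKα2 arrays, against 8.53, 8.36 and 8.36 on the shCtrl arrays. It fell by 1.90 (SE 0.10, limma, adjusted p = 4.35e-08), which was 3.74-fold and the second most negative among the members. The median for its level was -0.72, and its other probe sets fell by 1.28 and 0.51. Ifi44l, an induced gene that damps the response, stood at 4.88, 4.79 and 4.95 on the shAMPKα2 arrays, against 5.92, 5.97 and 6.02 on the shCtrl arrays. Its change of -1.10 (SE 0.08, limma, adjusted p = 4.75e-07) came at a level where the median of all genes was 0.62, and only 3.77% of genes of that level had a more negative change. The related gene Ifi44 had -0.20, which did not pass. Ifi35, whose product binds that of Nmi, stood at 7.29, 7.21 and 7.04 on the shAMPKα2 arrays, against 8.33, 8.26 and 8.34 on the shCtrl arrays. It fell by 1.13 (SE 0.09), beside a median of -0.68 for its level. Ifi27, a mitochondrial and nuclear membrane gene, stood at 9.95, 10.06 and 9.83 on the shAMPKα2 arrays, against 10.90, 10.88 and 10.92 on the shCtrl arrays, a log2 change of -0.96 (SE 0.09) near the median of -0.81 for its level.

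**Figure D4:**
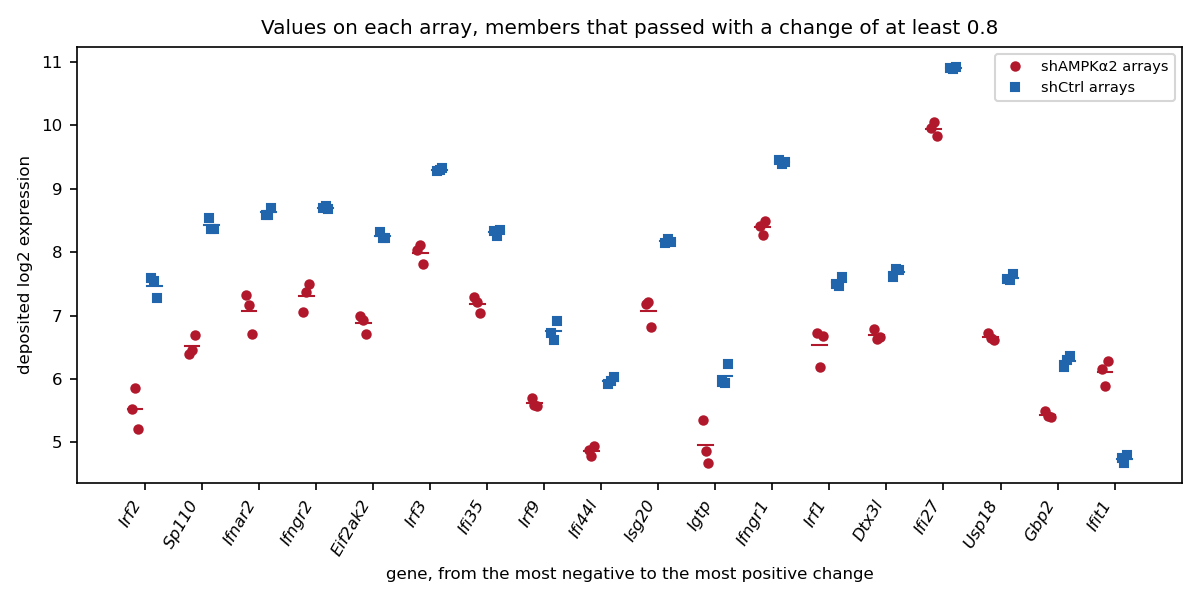
Deposited log2 values on each of the 3 shAMPKα2 arrays (red circles) and 3 shCtrl arrays (blue squares) for the 18 members that passed with a change of at least 0.8, with the group means as lines. The groups are apart for every gene shown, as in 87.1% of all genes, and the choice of genes by size of change favours this. Ifit1 is the only one of the 18 with the shAMPKα2 arrays above.

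The shAMPKα2 arrays were more spread than the shCtrl arrays in these genes. The median SD over the members was 0.149 on the shAMPKα2 arrays and 0.0623 on the shCtrl arrays, and over all genes it was 0.132 on the shAMPKα2 arrays and 0.0718 on the shCtrl arrays. The median over the members of the value minus the shCtrl mean was -0.08, -0.18 and -0.21 on the 3 shAMPKα2 arrays, so each of the 3 stood below the shCtrl mean. Over all genes the same medians were 0.06 on the first and on the second shAMPKα2 array and near 0 on the third.

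The surrounding pathway was read from 3 further lists. Of 20 measured genes of receptor signalling and feedback (22 listed), 13 fell and 5 rose, with a median log2 change of -0.65. Nmi, the partner of Ifi35, had means of 6.29 on the shAMPKα2 arrays and 8.65 on the shCtrl arrays and fell by 2.35. Pias3, an inhibitor of STAT proteins, and Irf2bp2, a corepressor that binds IRF2, fell by 1.72 and 1.58. Genes of the levels of Nmi, Pias3 and Irf2bp2 had medians of -0.77, -0.77 and -0.84. Among the risers were the feedback inhibitors Cish and Socs1, by 0.83 and 0.64, and Ifnlr1, a chain of the interferon lambda receptor, by 0.64. Genes of the levels of Cish, Socs1 and Ifnlr1 had medians of 0.82, 0.82 and 0.43. Averaged over probe sets, Irf2bp2 had -1.22 and Cish 0.50, while Nmi had -2.43 and Socs1 0.69. The Janus kinase genes that serve the receptors, Jak1, Jak2 and Tyk2, had log2 changes of -0.96, -1.12 and -0.53 and fell, where genes of their levels had medians of -0.85, -0.52 and -0.45. Under quantile normalization Jak1 had -0.30, and Tyk2 had -0.08 and did not pass; these 3 kinases were named after their values were seen.

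Of 17 measured genes of interferon ligands and induction (33 listed), 9 rose and 6 fell, with a median of 0.22. Ifnb1, the interferon beta gene, had means of 5.04 on the shAMPKα2 arrays and 4.20 on the shCtrl arrays and rose by 0.84, where the median for its level was 0.75. Tlr2, a sensor of bacterial lipoproteins, and Sting1, the adaptor for cytosolic DNA sensing, rose by 0.78 and 0.75 at levels with medians of 0.83 and 0.82. Tlr4, the endotoxin receptor gene, Myd88, its adaptor, and Tbk1, the kinase that activates IRF3, fell by 1.35, 1.09 and 0.83. The medians for the levels of Tlr4, Myd88 and Tbk1 were -0.67, -0.78 and -0.90, so Tbk1 fell less than genes of its level. After quantile normalization the change of Tbk1, -0.06, did not pass.

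Of 43 measured further interferon-induced genes (70 listed), 22 fell and 9 rose, with a median of -0.24. In all 4 scalings 14 fell and 5 rose (32.6% and 11.6%), beside 26.4% and 25.5% of all genes. By that rule 8 fell and 3 rose in the receptor signalling list, and 2 fell and 3 rose in the ligand list. Lgals9, which encodes galectin 9, had means of 6.84 on the shAMPKα2 arrays and 9.20 on the shCtrl arrays and fell by 2.35. Gch1, the first enzyme of tetrahydrobiopterin synthesis, and Parp12, an antiviral ADP-ribosyltransferase, fell by 1.82 and 1.54. At the levels of Lgals9, Gch1 and Parp12 the medians were -0.90, -0.68 and -0.34. Ciita, the master regulator of class II antigen presentation genes, rose by 1.13, and Tent5a and Ido1, which encode an RNA nucleotidyltransferase and a tryptophan-degrading enzyme, rose by 0.86 and 0.85. The median for genes at the levels of Ciita and Ido1 was 0.82, and for Tent5a it was -0.02. Averaged over probe sets, Gch1 had -1.01, Ciita 0.96 and Tent5a 0.28, while Lgals9, Parp12 and Ido1 kept their values. These lists, like the members, held changes in both directions, with the falls at 41.5% and the rises at 43.6% over all genes.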

How the data were processed

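RNA was isolated with Trizol and labelled with biotin by an Affymetrix One-Cycle kit, per the labels' protocols. The authors deposited 1 log2 expression value for each of 31099 probe sets on 6 arrays; background correction, summarization and normalization are not given in the sources used here, nor is signal over background. Of these, 57 array controls were left out, and of the other 31042 the platform annotation paired 20826 with 1 gene, 436 with several and 9780 with none. Each of 14217 genes was represented by its probe set of highest mean.

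The test was limma (version 3.58.1, R version 4.3.3; 2-sided, without covariate or filter). Over the 14217 genes p-values were adjusted by Benjamini-Hochberg, and a gene passed below 0.05. Changes are shAMPKα2 minus shCtrl, as differences of log2 values. Every measured member is named, with values on each array where it passed with a change of at least 0.8 and for the receptor chains, Stat2, Irf3, Irf7 and Irf9. From each further list up to 3 rises and 3 falls of the largest size among genes that passed are named. Genes of like level are all genes within 0.5 log2 units of a member's shCtrl mean. Alternatives were other scalings, probe set choices, a filter of the lowest 25%, an intensity trend, a replicate block and leaving out each array. Members and lists were chosen with earlier results of these data known. The fit was tested on simulated data, with the spread pooled over both groups.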

Additional observations from a re-analysis of the deposited data

How the results depend on the processing

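The counts of 21 falls and 10 rises and the median of -0.17 were recomputed under every alternative. After median centring, 27 members fell, 4 rose and the median was -0.39, beside -0.17 over all genes. The median was -0.47 with the most variable probe set of each gene, beside 0.11 over all genes. Without the lowest 25% of genes 38 members were left, with a median of -0.64 beside -0.32 over all genes kept. With an adjusted p of 0.01, 6 members rose and 21 fell, beside 5633 and 5474 of all 14217 genes. Leaving out 1 array gave 6 to 9 rises, 21 to 22 falls and medians from -0.22 to -0.10, and the fewest rises came without shCtrl replicate 2. Over all 14217 genes it gave 5905 to 6248 rises, 5641 to 5910 falls and medians from 0.03 to 0.07. After quantile normalization and cyclic loess 10 members rose in each, and 23 and 27 fell.

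Signs turned in these members. After quantile normalization the changes were -0.38 for Dhx58, 0.22 for Isg15, -0.34 for Mx1, -0.22 for Mx2, -0.13 for Oas1b, -0.012 for Oasl, 0.49 for Parp14, 0.23 for Parp9, -0.35 for Rsad2, 0.42 for Stat2 and 0.018 for Trim25. After cyclic loess they were -0.54 for Dhx58, -0.11 for Irf5, 0.15 for Isg15, -0.35 for Mx1, -0.32 for Mx2, -0.17 for Oas1a, -0.14 for Oas1b, -0.18 for Oasl, 0.44 for Parp14, 0.21 for Parp9, -0.49 for Rsad2 and 0.37 for Stat2. After median centring they were -0.12 for Bst2, -0.15 for Dhx58, -0.054 for Ifitm3, -0.033 for Ifnar1, -0.15 for Mx1, -0.077 for Oasl and -0.11 for Rsad2. With the mean of probe sets Dhx58 had -0.33 and Ifnar1 -0.18, and with the most variable probe set they had -0.82 and -1.33. Leaving out 1 array gave ranges of -0.045 to 0.17 for Dhx58, -0.040 to 0.19 for Mx1, -0.036 to 0.18 for Rsad2 and -0.10 to 0.049 for Samhd1. Beyond the median centring and the probe set choices themselves, the cause was not tested.

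Replicate numbers are shared by the groups, but deviations of same-numbered arrays had correlations of -0.02, 0.01 and -0.10, so the numbers were not taken as pairs. With the replicate block, 11 members rose and 21 fell, beside 6173 and 5866 of all 14217 genes. Calls of Ifih1, Mx2 and Irf5 were lost on leaving out each of several arrays. No detection calls were at hand, so the values of low members may be background.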
